A study of Mus musculus with 10 samples.

Results

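Amino acid transporters are membrane proteins that carry amino acids into and out of cells, and 10 of their genes were followed here in leukemic mouse spleens. They are Slc7a5, Slc3a2, Slc1a5, Slc7a11, Slc7a1, Slc7a6, Slc38a1, Slc38a2, Slc1a4 and Slc43a1, chosen by gene symbol from the 20813 genes of the deposited table. All 10 were found and all 10 were among the 15276 genes tested. RNA came from spleens of C57BL/6 mice into which T-cell acute lymphoblastic leukemia (T-ALL), a cancer of immature T cells, had been injected intravenously. Both groups carried leukemias with a conditional knockout allele of Sirt1, which encodes a NAD-dependent protein deacetylase, and recipients had received sublethal irradiation. The 5 samples with the genotype label Sirt1 deleted came from mice given 3 mg of tamoxifen in corn oil by intraperitoneal injection, and the 5 labelled Control came from mice given corn oil alone. The controls therefore had no tamoxifen, so that the drug and the deletion cannot be told apart. The Cre driver, the number of separate leukemias and the age of the mice are not given in the sources used here, so the p-values below measure the spread between these samples. Samples are named by the numbers in their titles, 7, 8, 10, 11 and 12 for the group labelled Sirt1 deleted and 2, 3, 4, 5 and 6 for controls, and values are listed in that order throughout.

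Dividing T cells take up large amounts of leucine, glutamine, arginine and cystine, and activated and leukemic T cells are known for high levels of several of these carriers. SLC3A2 (the 4F2 heavy chain, CD98) is a glycoprotein that binds a light chain such as SLC7A5, SLC7A6 or SLC7A11 and brings it to the cell surface. SLC7A5 exchanges intracellular amino acids such as glutamine for leucine and other large neutral amino acids, and the glutamine it spends can be supplied by carriers such as SLC1A5, SLC38A1 and SLC38A2. Leucine and arginine inside the cell are signalled to the growth kinase complex mTORC1 through the Rag GTPases, and a shortage of amino acids raises the translation of the transcription factor ATF4.

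The deposited values are normalized counts, meaning counts per gene divided by a DESeq normalization factor. They summed to between 33.7 and 34.5 M per sample (M, mega). The transcript level of Sirt1, the targeted gene, was 1873 ± 146 in spleens labelled Sirt1 deleted and 1810.5 ± 62.5 in controls (SD, n = 5 each), and this difference did not exceed the replicate spread (limma adjusted p = 0.568, log2 difference 0.05 with SE 0.06). A gene-level value cannot show whether the deleted exons were lost, so it does not check the deletion, and the treated group is named by its label throughout. Across the table, the test called 36.1% of genes (limma with Benjamini-Hochberg adjustment, adjusted p under 0.05), 16.8% as higher and 19.4% as lower. Of the genes that differed, 46.4% were higher, and 64.4% were higher after upper-quartile rescaling, which moved the median log2 difference of all genes to 0.0813. The T-cell markers Lck, Cd3g and Cd3e were abundant in both groups, with Cd3e at 11998 ± 1695 against a control level of 12238 ± 483 (SD, n = 5 each). Other T-cell markers moved. Cd5 (3292 to 4030 against 5388.5 to 6201.55), Cd8b1 and Tcf7 were lower and Cd3d was higher, each without overlap between the groups. Markers of other cells moved with the groups: the summed level of 14 neutrophil genes was 28974.5 to 99982 against 9166 to 12658.5 in controls, with 13 of 14 higher, and that of 16 macrophage and monocyte genes was 7595 to 14583 against 3734 to 4270.03, with 13 of 16 higher. The summed level of 18 T-cell leukemia genes was 188934 to 216783 against 220669 to 236639. Of these 18, 6 were lower and 1 higher, and the 38.9% that passed is near the 36.1% of all tested genes. Tcf7, the most abundant of the 18, sets the groups apart in this sum, at 49376 to 64326 against 74745.5 to 80366.5. Lck, the next most abundant, overlapped between the groups, at 28695 to 33296 against 26751 to 30529. The sum therefore does not stand for T-cell genes in general. Among 4 tested plasma-cell genes 3 were higher and 1 lower. Among 6 tested stromal and endothelial genes 2 were lower, and this 33.3% is near the 36.1% of all tested genes. None of the tested B-cell (8), erythroid (10), NK-cell (4) or platelet (4) genes passed. None of the neutrophil, macrophage or T-cell genes was at 0. The part of this shift in the transporter results was not tested, and in bulk tissue fewer cells of a type and less RNA per cell cannot be told apart.

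Of the 10 transporters, 7 fell and 1 rose in the spleens labelled Sirt1 deleted, where 36.1% of all tested genes differed. The genes that fell were Slc7a5, Slc7a1, Slc7a6, Slc38a1, Slc38a2, Slc1a4 and Slc43a1, by 15.6% to 34.6% of their control mean. Slc1a5, the glutamine carrier, rose by 15.6%. Slc3a2 and Slc7a11 did not pass the test. The median log2 difference of the 10 was -0.32, and that of all tested genes was -0.00014. Values of the groups did not overlap for Slc7a6, Slc38a1 and Slc43a1, which is 3 of 10, and 24.0% of all tested genes had no overlap (12.9% as lower). With an exact rank-sum test in place of limma these 3 passed (adjusted p = 0.0331 for each), which is no separate check, because with 5 samples a group that test called the same number of genes as had no overlap, 3659.

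**Figure D1:**
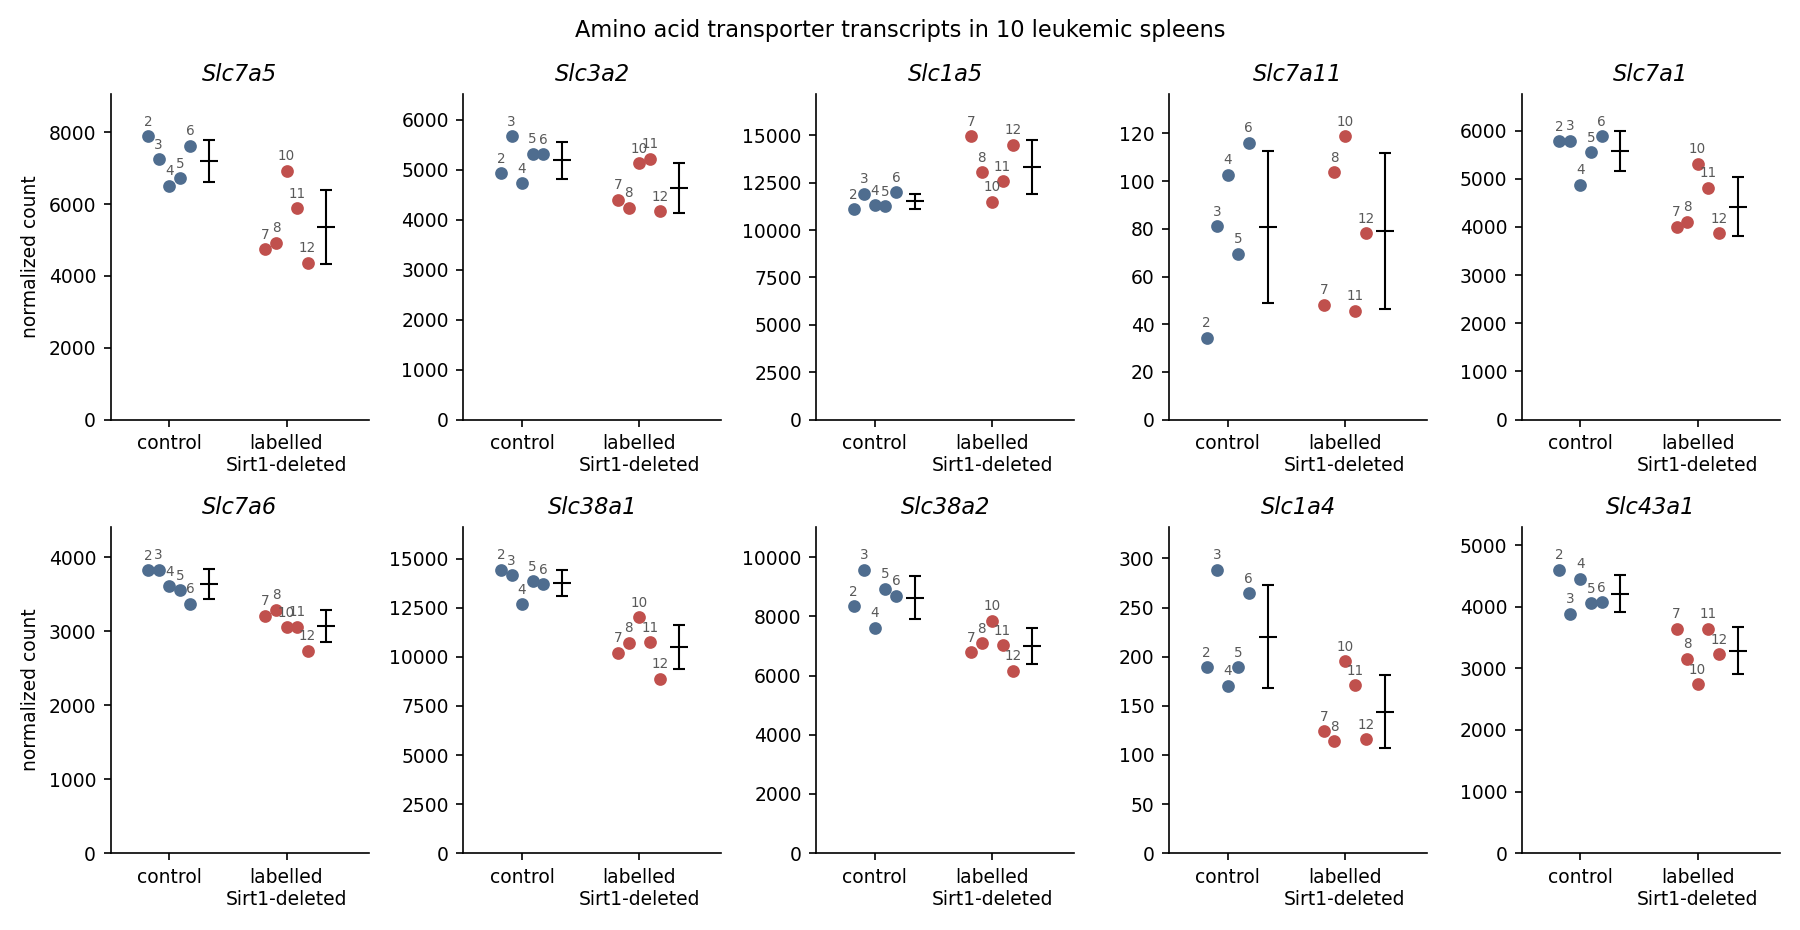
Normalized counts of the 10 transporters in each sample, with control samples in blue and spleens labelled Sirt1 deleted in red, the sample numbers above the points, and the mean and SD (n = 5) in black beside them. Each vertical axis starts at 0. The groups do not overlap for Slc7a6, Slc38a1 and Slc43a1, Slc1a5 is the gene with a higher mean in the spleens labelled Sirt1 deleted, and Slc7a11 is scattered alike in both groups.

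Slc7a5 encodes LAT1, the light chain that imports leucine and other large neutral amino acids. Its normalized counts were 4749, 4926, 6922, 5879.5 and 4372 in the spleens labelled Sirt1 deleted and 7891, 7252, 6505, 6714 and 7625 in controls. Sample 10 lay within the control range and the other 4 lay below every control. The mean fell by 25.4%, from 7197 ± 587 to 5369.7 ± 1030.4 (SD, n = 5 each; limma adjusted p = 0.00879, log2 difference -0.44 with SE 0.11). The gene lies on the minus strand of chromosome 8, from 121881150 to 121907694 in mm10, and another annotated gene, Gm20388, overlaps it on the opposite strand. The libraries were strand-specific, but whether the counting used strand is not given in the sources used here. Only the gene spans were compared and not their exons, so whether reads of the pair were mixed is not known.

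Slc3a2 encodes the heavy chain that LAT1 needs at the cell surface. Slc3a2 lies at chr19:8706882-8723369 in mm10, on the minus strand. Its normalized counts were 4396, 4238, 5125, 5214.5 and 4171 in the spleens labelled Sirt1 deleted and 4933, 5672, 4726, 5317 and 5304 in controls. Samples 10 and 11 lay within the control range and the other 3 lay below it. The log2 difference was -0.17 (SE 0.07, 95% interval -0.33 to -0.01) and did not pass after adjustment over all genes (limma adjusted p = 0.094). Single libraries decided this call: without sample 10 the log2 difference was -0.21 (limma adjusted p = 0.0403), and without sample 11 it was -0.21 (limma adjusted p = 0.0372). With sample weights it was also -0.21 (limma adjusted p = 0.0218), against a range of 0.0218 to 0.357 over the alternatives that kept all samples. The light chain and the heavy chain thus have separate calls, but whether their differences differ was not tested.

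The ratio of Slc7a5 to Slc3a2 normalized counts within a sample, which does not depend on how samples were scaled, was chosen for display after the values were seen. It was 1.08, 1.162, 1.351, 1.128 and 1.048 in the spleens labelled Sirt1 deleted and 1.60, 1.279, 1.377, 1.263 and 1.438 in controls. All but sample 10 lay below the lowest control.

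Slc7a6 encodes y+LAT2, another partner of the heavy chain, which exchanges arginine and lysine for neutral amino acids. Slc7a6 lies at chr8:106168857-106198706 in mm10, on the plus strand. It measured 3213, 3295, 3059, 3061 and 2737 normalized counts in the spleens labelled Sirt1 deleted and 3829, 3836, 3608, 3555 and 3371.5 in controls. Every treated sample lay below every control. The mean fell by 15.6% (limma adjusted p = 0.00734, log2 difference -0.25 with SE 0.06), the smallest of the 7 falls.

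Slc7a11 encodes xCT, the light chain that imports cystine in exchange for glutamate and so feeds glutathione synthesis. Slc7a11 lies at chr3:49892526-50443614 in mm10, on the minus strand. Its level was the lowest of the 10, at 48.1, 104, 119, 45.7 and 78.3 normalized counts in the spleens labelled Sirt1 deleted and 34.3, 81.2, 103, 69.6 and 116 in controls. Both groups spread over a similar range. The log2 difference was -0.02 with a 95% interval of -0.78 to 0.73 (limma adjusted p = 0.967), so that a change of the size seen in the other members was not detectable here. Its sign turned after upper-quartile rescaling (0.06), and without single samples it ranged from -0.30 to 0.14. Annotated pseudogenes and an antisense gene overlap its locus.

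Slc7a1 encodes CAT-1, the main carrier of arginine and lysine in many cell types, which works without the heavy chain. Slc7a1 lies at chr5:148327410-148399904 in mm10, on the minus strand. It measured 4007, 4109.7, 5315, 4815 and 3869.5 normalized counts in the spleens labelled Sirt1 deleted and 5775, 5793.5, 4876, 5548 and 5887 in controls. Sample 10 alone reached the control range. The mean fell by 20.7%, from 5576 ± 410.4 to 4423 ± 618 (SD, n = 5 each; limma adjusted p = 0.00997, log2 difference -0.34 with SE 0.09).

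The pair of neighbouring genes Slc38a1 and Slc38a2 encodes SNAT1 and SNAT2, sodium-coupled carriers that load cells with glutamine, alanine and other small neutral amino acids. Both lie on the minus strand of chromosome 15 in mm10, Slc38a1 from 96571418 to 96642913 and Slc38a2 from 96687392 to 96699730. Slc38a1 measured 10204, 10718, 12008, 10753 and 8896 normalized counts in the spleens labelled Sirt1 deleted and 14447, 14156, 12681, 13843 and 13697 in controls. Every treated sample lay below every control, and its mean fell by 23.6% (log2 difference -0.39 with SE 0.07, limma adjusted p = 0.00176).

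Slc38a2 is the member of this pair known to be induced when amino acids run short. Its normalized counts were 6783, 7085, 7853, 7021 and 6168 in the spleens labelled Sirt1 deleted and 8344, 9580.0, 7618, 8928 and 8699.8 in controls. Sample 10 lay above control 4 and the other 4 lay below every control. Its mean fell by 19.1% (limma adjusted p = 0.00619, log2 difference -0.31 with SE 0.07).

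Slc1a5 encodes ASCT2, which exchanges glutamine and other neutral amino acids and takes up glutamine in many dividing cells. Slc1a5 lies at chr7:16781340-16798274 in mm10, on the plus strand. Slc1a5 was the member that rose. It measured 14956, 13050.0, 11502, 12575 and 14491 normalized counts in the spleens labelled Sirt1 deleted and 11087, 11905, 11320.0, 11269 and 11997 in controls. Sample 10 lay within the control range and the other 4 lay above it. The mean was 13315 ± 1413 against 11516 ± 408 (SD, n = 5 each; limma adjusted p = 0.0307, log2 difference 0.20 with SE 0.07).

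The rise of Slc1a5 rested on single libraries for its call, though not for its sign. The log2 difference was 0.16 without sample 7 (limma adjusted p = 0.0771) and 0.17 without sample 12 (limma adjusted p = 0.069). It was 0.19 without control 2, 0.20 without control 4 and 0.20 without control 5 (limma adjusted p = 0.0699, 0.0609 and 0.0663). Leaving out the intensity trend in limma also ended the call (adjusted p = 0.0641), while upper-quartile rescaling gave a log2 difference of 0.29. Over the alternatives that kept all samples, the adjusted p of Slc1a5 ranged from 0.00737 to 0.0823.

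Slc1a5 thus moved opposite to the glutamine carriers Slc38a1 and Slc38a2. The ratio of Slc1a5 to Slc38a1 normalized counts within a sample was 1.466, 1.218, 0.958, 1.169 and 1.629 in the spleens labelled Sirt1 deleted and 0.767, 0.841, 0.893, 0.814 and 0.876 in controls. These groups did not overlap. The ratio of Slc1a5 to Slc7a5, the importer that spends glutamine, was 2.58 ± 0.69 against 1.61 ± 0.128 (SD, n = 5 each), with sample 10, at 1.66, inside the control range of 1.41 to 1.74. Both ratios were chosen after the values were seen and carry no test.

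**Figure D2:**
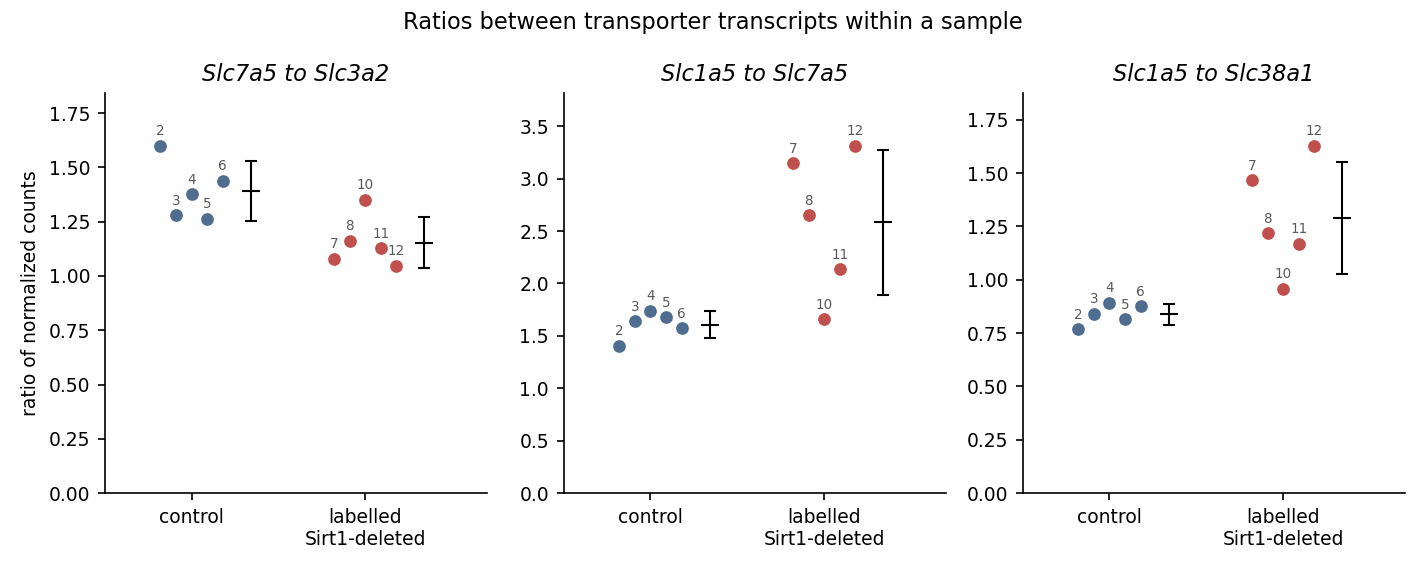
Ratios of normalized counts within each sample for Slc7a5 to Slc3a2, Slc1a5 to Slc7a5 and Slc1a5 to Slc38a1, with control samples in blue, spleens labelled Sirt1 deleted in red, and the mean and SD (n = 5) in black. The groups are apart for Slc1a5 to Slc38a1, where the lowest treated sample is at 0.958 and the highest control at 0.893, and touch in the other panels through sample 10.

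Slc1a4 encodes ASCT1, a carrier of serine, alanine and cysteine related to ASCT2. Slc1a4 lies at chr11:20302180-20332713 in mm10, on the minus strand. It was expressed at a low level, with 124, 114, 195, 171 and 116 normalized counts in the spleens labelled Sirt1 deleted and 189, 289, 170.3, 189 and 264.5 in controls. Samples 10 and 11 lay within the control range and the other 3 below it. Its fall was the largest of the 10, 34.6% of the mean, and its interval was wide (limma adjusted p = 0.0257, log2 difference -0.61 with SE 0.19 and 95% interval -1.03 to -0.20). The call was lost without sample 7, 8 or 12, at log2 differences of -0.57, -0.54 and -0.55 (limma adjusted p = 0.0597, 0.059 and 0.0626). It was also lost without control 3 or 6, at -0.51 and -0.54 (limma adjusted p = 0.0637 and 0.0627).

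Slc43a1 encodes LAT3, which lets branched-chain amino acids and phenylalanine across the membrane without exchange and without the heavy chain. Slc43a1 lies at chr2:84838850-84863594 in mm10, on the plus strand. Its normalized counts were 3645, 3156, 2741.5, 3645 and 3229 in the spleens labelled Sirt1 deleted and 4602, 3883, 4454, 4056 and 4070.4 in controls. The groups did not overlap. Sample 10, the highest of its group in 5 of the 7 genes that fell, was the lowest for this gene. The mean fell by 22.1% (limma adjusted p = 0.00466, log2 difference -0.36 with SE 0.08).

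**Figure D3:**
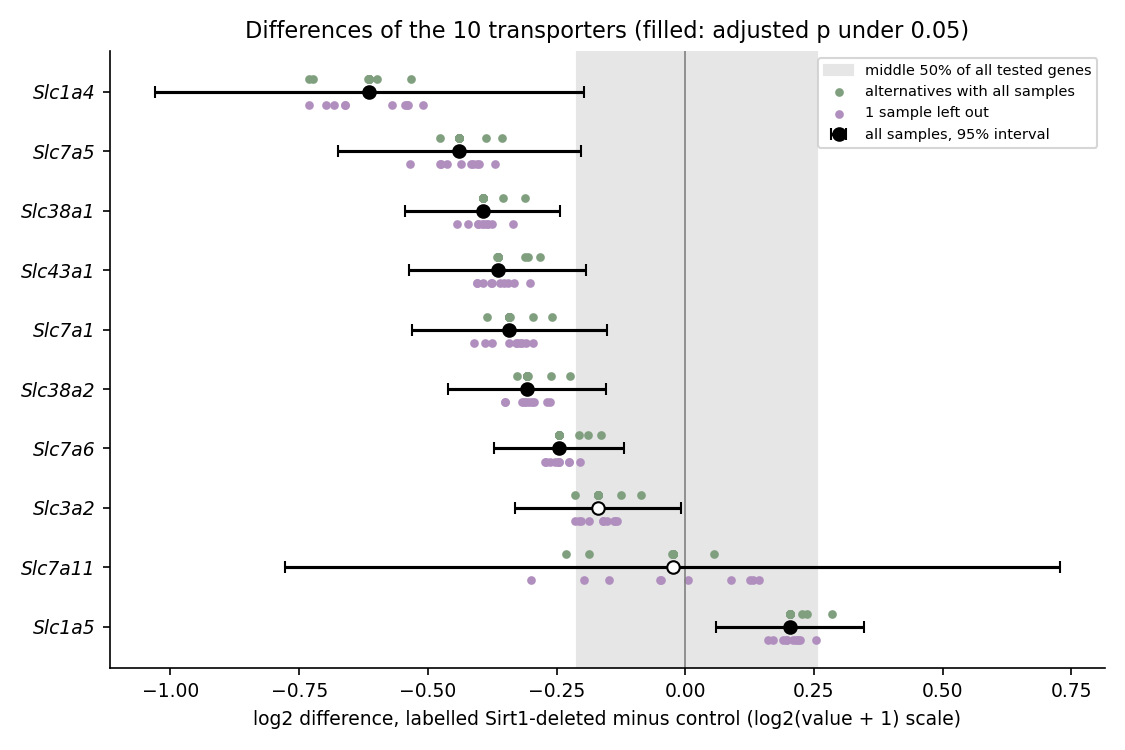
Log2 differences of the 10 transporters (labelled Sirt1 deleted minus control) with 95% intervals in black, filled where the adjusted p was under 0.05. Green points are the 11 alternatives that kept all samples, purple points the 10 fits that each left out 1 sample, and the grey band holds the middle 50% of all tested genes, from -0.21 to 0.26. All points of the 7 genes that fell lie below 0, those of Slc1a5 lie above 0, and those of Slc7a11 lie on both sides.

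The libraries were not alike in how far they lay from the controls. Among the 7 genes that fell, sample 10 reached the control range in 4 and sample 11 in 1, while samples 7, 8 and 12 reached it in 0. Sample 12 was the lowest of its group in 5 of the 7. Sample 10 also had the lowest summed neutrophil marker level of its group, 28974.5, and sample 12 the lowest summed T-cell leukemia marker level, 188934. The T-cell markers of sample 12 were not all low: it was lowest of its group for Tcf7 (49376) but highest for Cd3d (14884) and Bcl11b (9513). The part of either summed level in the transporter values was not tested.

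Levels of different genes were compared per kilobase of the longest annotated coding transcript (GENCODE M21). In controls Slc1a5 was the highest, at 4166 ± 148 normalized counts per kilobase (SD, n = 5), above the range of every other member. Slc7a5 (2046 ± 167), Slc38a1 (1894 ± 92.4), Slc38a2 (1853 ± 156) and Slc3a2 (1845 ± 131) followed, and each overlapped its neighbour in this order. Slc43a1 (1364 ± 97.5), Slc7a6 (971 ± 52.4) and Slc7a1 (777 ± 57.2) came next without overlap, and Slc1a4 (56.1 ± 13.4) and Slc7a11 (8.76 ± 3.43) were far below. In the spleens labelled Sirt1 deleted Slc1a5 stayed first, at 4817 ± 511, and Slc7a5 passed from rank 2 to rank 3, at 1527 ± 293. The order rests on the transcript length taken: the median length of the coding transcripts was used first and was replaced after the values were seen, because it counts short annotated fragments. With that median, Slc3a2 came first and Slc1a5 was at rank 4, while Slc1a4 and Slc7a11 stayed last.

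The start-site regions of the members were searched for short motifs of factors known to act on such genes. RefSeq windows of 300 bases (250 before to 50 after a start, GRCm38.p6) were at hand for 7 of the 10 members, 9 windows in all, and for neither Slc7a5, Slc1a5 nor Slc38a1. The amino acid response element bound by ATF4 was searched as TGATGNAA on both strands and occurred in the windows of Slc7a11 and Slc1a4, and in 3.97% of all 32851 windows. The E-box bound by MYC, CACGTG, occurred in that of Slc43a1 and in 7.15% of all windows. The antioxidant element bound by NRF2, searched as TGACNNNGC on both strands, occurred in the windows of Slc43a1, Slc7a1, Slc7a6 and Slc38a2, and in 12.4% of all. A match is a description of letters and not a measured site. The stretches around the ATF4 and MYC motifs are shown 5′ to 3′ on the gene's strand, with the motifs in capitals (in Slc43a1 the second capital run is the antioxidant element).
Slc7a11, chr3:50443642-50443690, minus strand: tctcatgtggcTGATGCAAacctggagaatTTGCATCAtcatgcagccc
Slc1a4, chr11:20332710-20332728, minus strand: tgcctcctgcgTTGCATCA
Slc43a1, chr2:84840248-84840322, plus strand: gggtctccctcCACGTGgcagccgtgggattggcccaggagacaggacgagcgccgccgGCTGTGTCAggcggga
Slc7a11 holds the ATF4 motif on each strand, and Slc1a4 holds it once, across its start. Whether these motifs bear on the transcript differences was not tested.

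Transcripts of those factors were read beside them. Atf4 rose from 6684 ± 549 to a normalized count of 8924 ± 592 (SD, n = 5 each; limma adjusted p = 8.28e-04, log2 difference 0.42 with SE 0.06), with no overlap. ATF4 is controlled mainly through its translation, which was not measured. Ddit3, which encodes the stress factor CHOP, rose by 0.38 on the log2 scale (limma adjusted p = 0.0221). Atf3, Atf5 and Trib3, from the same list of regulators, did not pass (limma adjusted p = 0.868, 0.891 and 0.547). The asparagine synthetase gene Asns did not pass either (log2 difference -0.22, limma adjusted p = 0.239). Myc was at 9523 against 10181 (limma adjusted p = 0.204), and Nfe2l2, which encodes NRF2, at 3018 against 3149 (limma adjusted p = 0.384); neither passed. Of 30 tested genes on the list of transcription and stress regulators, 3 rose and 8 fell, with a median log2 difference of 0.02, and the 36.7% that passed is near the 36.1% of all tested genes. The split turned with the scaling, to 7 higher and 5 lower after upper-quartile rescaling and to 6 and 6 after quantile normalization. Eif2ak2, which encodes the double-stranded RNA kinase PKR, rose by 0.44 (limma adjusted p = 6.21e-04). Nedd4, a ubiquitin ligase, Atf6, a sensor of protein folding stress, and Eif2ak3, which encodes the kinase PERK, had log2 differences of -0.49, -0.41 and -0.36 (limma adjusted p = 0.00175, 9.06e-04 and 0.00188). Eif2ak4, which encodes GCN2, the kinase that senses uncharged tRNA, fell by 0.25 on the same scale (limma adjusted p = 0.0303). Ddit3, Atf3, Atf5, Trib3, Asns, Myc, Nfe2l2 and Eif2ak4 are named outside the naming rule, with their values known. The list held 7 changed genes in place of 11 without sample 12 or without control 2.

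Other amino acid carriers, grouped here as carriers of the plasma membrane, were read from a list of 37 genes, of which 31 were in the table and 21 were tested. Where these carriers sit in the cell was not measured. Of these, 6 fell and 2 rose, with a median log2 difference of -0.19, and the 38.1% that passed is near the 36.1% of all tested genes. After upper-quartile rescaling 5 were lower and 3 higher. Slc36a4, a carrier of proline and tryptophan, fell from 1113 ± 139 to a normalized count of 697 ± 109 (SD, n = 5 each; limma adjusted p = 0.00126, log2 difference -0.68 with SE 0.11). Slc43a2, which encodes LAT4, the close relative of LAT3, had a log2 difference of -0.63 (limma adjusted p = 0.00174), and the taurine carrier Slc6a6 one of -0.58 (limma adjusted p = 8.52e-04). The groups did not overlap for these 3, which the rule for naming genes required. On this list 5 of 21 genes were lower and 2 higher without overlap, against 12.9% and 11.1% of all tested genes. The remaining falls were in the glycine carrier Slc6a9 (-0.98), Slc38a10 (-0.50) and Slc38a6 (-0.27), named after their values were seen.

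The 2 that rose were low, and are named here after their values were seen. Slc7a8, which encodes LAT2, another leucine-carrying partner of the heavy chain, rose from 37.2 ± 6.72 to a normalized count of 82.0 ± 9.21 (SD, n = 5 each; limma adjusted p = 7.37e-04, log2 difference 1.13 with SE 0.17). Slc7a2, which encodes the arginine carrier CAT-2, known in activated macrophages, stood at 63.9 ± 17.4 against 28.9 ± 5.39 and also rose (limma adjusted p = 0.00284, log2 difference 1.10). Both moved opposite to the members they resemble, Slc7a5 and Slc7a1. Macrophage and monocyte markers were also higher in this group, but the samples within it did not follow them closely. Slc7a2 was highest in sample 10 (90.1), which had the lowest summed macrophage and monocyte level of its group (7595). Slc7a8 was at 79.3 in that sample, inside the range of its group (73.3 to 91.8). The part of those cells in these values was not tested.

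Of 18 lysosomal and mitochondrial carriers tested, 3 rose and 4 fell, with a median log2 difference of -0.09. This is 38.9%, near the 36.1% of all tested genes, and after upper-quartile rescaling 4 were higher and 3 lower. The mitochondrial aspartate-glutamate carrier Slc25a12 had a log2 difference of -0.35 (limma adjusted p = 0.0092) and the branched-chain amino acid carrier Slc25a44 one of -0.28 (limma adjusted p = 0.00811). Slc25a29, a mitochondrial carrier of basic amino acids, rose by 0.53 (limma adjusted p = 0.00775). Slc38a9, the lysosomal arginine sensor, rose by 0.28 (limma adjusted p = 0.0293) and is named after its value was seen. The count was 4 in place of 7 without sample 7 or sample 12.

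Of 37 tested genes that report amino acid supply to mTORC1, 4 rose and 9 fell, with a median log2 difference of -0.00242, and the 35.1% that passed is near the 36.1% of all tested genes. After upper-quartile rescaling 6 were higher and 7 lower. Sesn2, which encodes a leucine-binding inhibitor of this pathway, rose from 437 ± 38.5 to a normalized count of 834 ± 130.0 (SD, n = 5 each; limma adjusted p = 2.71e-04, log2 difference 0.92 with SE 0.11). Tsc2, which encodes another inhibitor of mTORC1, rose by 0.55 (limma adjusted p = 7.99e-04), and Lamtor4, a subunit of the lysosomal scaffold for the Rag GTPases, by 0.45 (limma adjusted p = 0.00452). Rragd, a Rag GTPase, fell from 811 ± 54.7 to 464 ± 86.3 (limma adjusted p = 5.78e-04, log2 difference -0.82 with SE 0.11). Mios, a subunit of the activating complex GATOR2, and Depdc5, a subunit of the inhibiting complex GATOR1, had log2 differences of -0.49 and -0.40 (limma adjusted p = 0.0022 and 0.0109).

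Enzymes that use the transported amino acids gave 6 rises and 8 falls among 39 tested, with a median log2 difference of -0.03, and the 35.9% that passed is near the 36.1% of all tested genes. This split turned to 9 higher and 5 lower after upper-quartile rescaling and to 8 and 6 after quantile normalization. Among mitochondrial enzymes that handle glutamate, Got2, an aspartate aminotransferase, fell by 0.52 on the log2 scale and Glud1, glutamate dehydrogenase, fell by 0.43 (limma adjusted p = 0.0083 and 0.0033). Bcat2, the mitochondrial branched-chain aminotransferase, rose by 0.42 (limma adjusted p = 0.00174). The paired subunits of the branched-chain ketoacid dehydrogenase moved apart, Bckdha at -0.44 and Bckdhb at 0.58 (limma adjusted p = 0.00236 and 0.00581). Gpx4, the glutathione peroxidase that acts on membrane lipids, rose by 0.45 (limma adjusted p = 0.0199). Without sample 7 the list held 9 changed genes in place of 14.

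Of the 20 cytosolic aminoacyl-tRNA synthetases, which load amino acids onto tRNA, 4 fell and 0 rose, and 16 of 20 had a negative difference. Their share that passed was below the 36.1% of all tested genes. Kars, the lysine enzyme, was the 1 without overlap between the groups, at 7831 ± 1148 against 9795 ± 332 normalized counts (SD, n = 5 each; limma adjusted p = 0.0106, log2 difference -0.34 with SE 0.09). The count was unstable: it was 9 without sample 10, 1 without control 2, and 2 without any 1 of samples 7 and 12 or controls 3, 5 and 6. It was also 9 with sample weights, 2 without the intensity trend, and 2 after upper-quartile rescaling and 3 after quantile normalization, with 1 of them higher in each case.

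**Figure D4:**
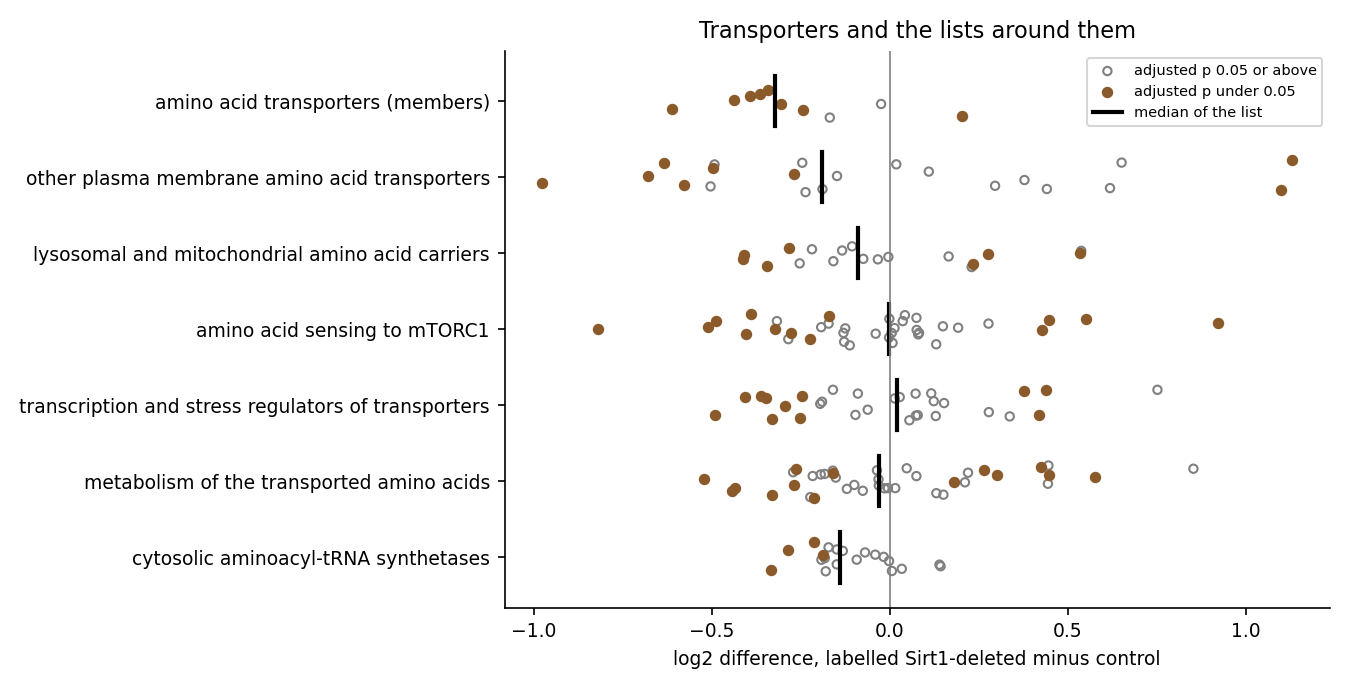
Log2 differences (labelled Sirt1 deleted minus control) of the tested genes of the 10 transporters and the 6 lists around them, each point a gene, filled where the adjusted p was under 0.05, with the median of each list as a black bar. The medians run from -0.32 for the transporters to 0.02 for the transcription and stress regulators, and every list except the synthetases has filled points on both sides of 0.

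Genes with the pattern most like that of a member were found from the root mean square difference of z-scored log2 values over the 10 samples, where 0 is an identical pattern. This is a description that the group difference and the scatter within groups both enter. Slc38a1 had the closest neighbours, B230219D22Rik (0.0759), Foxm1 (0.0968) and Casp2 (0.106). Slc7a5 was followed by Champ1 (0.123), Sept11 (0.13) and Pdzd8 (0.148), and Slc7a1 by Prkci (0.143), Prdm4 (0.162) and Champ1 (0.175). Among the 15276 tested genes, Slc7a1 was itself at rank 8 in likeness to Slc7a5, and the heavy chain Slc3a2 was at rank 2034. In likeness to Slc3a2, Slc7a5 was at rank 352. Slc1a5 was nearest to BC037034 (0.202), Slc39a2 (0.21) and Tagap1 (0.224), Slc7a6 to Map2k7, Hp1bp3 and Cracr2a (0.205 to 0.209), and Slc38a2 to Bach1 (0.206), Rab11fip4 and Zfp966. The other members had looser neighbours: Shmt2, Bcl7a and Mavs for Slc3a2 (from 0.256), Tet1, Mindy2 and Pink1 for Slc43a1 (from 0.259), Mcph1, Fam8a1 and Naglu for Slc1a4 (from 0.265), and Gata3, Pemt and Prrc1 for Slc7a11 (from 0.415).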

How the data were processed

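RNA-seq of 10 leukemic spleens (5 per group, grouped by title) was analysed from 1 deposited table. Its values are a normalized signal: counts per gene that the authors divided by DESeq normalization factors. Per the submitters' processing notes, kallisto 0.44.0, DESeq and mm10 were used; annotation and filters are not given in the sources used here. Libraries were strand-specific and red blood cells were lysed, per the labels' protocols. Low values lay within 0.1 of whole multiples of the most frequent low value in 61.9% to 73.7% of cases (up to 8.5 multiples), so reads were not recovered; the spacing gives roughly 31.1 to 37.6 M reads per sample.

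Genes with a mean of at least 10 were tested on log2(value + 1) with limma 3.58.1 in R 4.3.3 (group as the only term, intensity trend), with Benjamini-Hochberg adjustment at 0.05 over all 15276 genes. Differences on this scale understate changes of low genes. The script was tested on simulated data. The members and lists were chosen with earlier results of these data known. Named were all members and, from each of 6 lists, up to 3 rises and 3 falls that passed the test, averaged 100 or more and had groups that did not overlap; other names are marked where they appear. Gene positions and lengths came from GENCODE M21. Columns outside the samples: 0.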

Additional observations from a re-analysis of the deposited data

Results flagged for a closer look

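For the members, Sirt1 and the named genes, each set of 5 samples was searched for a value far from the rest (its distance to the next value as a share of the whole spread of that set). Of 70 sets, 3 passed the critical value of 0.71, and chance alone flags about 1 in 20. No transporter was among them. Sample 10 was the lowest of the spleens labelled Sirt1 deleted for Eif2ak2, at 1829.9 normalized counts where the other 4 lay between 2060.0 and 2083 (share 0.909), and still above every control. Control 2 was the highest control for Mios, at 1718.9 where the other 4 lay between 1340.0 and 1431 (share 0.76), and for Glud1, at 6683 where they lay between 5421 and 5708 (share 0.773).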

How the results depend on the processing

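The 11 alternatives that kept all samples changed the pseudocount (0.1 or 5), the minimum mean (1, 50 or none), the scaling (upper quartile or quantile), the test (limma with sample weights, limma without the trend, an exact rank-sum test) or the threshold (adjusted p under 0.01). A further fit, added after the data were seen, left out samples 10 and 11 of the spleens labelled Sirt1 deleted together. It is not reported, because these samples had been picked by their transporter values. No paired analysis was possible because no number in the titles occurs in both groups. The number of changed genes was 3659 with the rank-sum test and 2850 at an adjusted p under 0.01, against 5518. The number of changed members was 3 with the rank-sum test, which called as many genes as had no overlap between the groups, against 8, and from 6 to 9 without 1 sample. The number of changed genes on the 6 lists was 37 and 29 under the same alternatives, against 57, and from 42 to 68 without 1 sample; over all genes it was from 4207 to 6259. Slc7a6, Slc38a1 and Slc43a1 passed under all 11 alternatives and in all 10 fits without 1 sample. Slc7a5, Slc7a1 and Slc38a2 did so except under the rank-sum test (adjusted p = 0.0823, 0.0512 and 0.0512). Slc7a11 changed sign after upper-quartile rescaling (0.056) and ranged from -0.30 to 0.14 without 1 sample.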
